A study of Mus musculus with 28 samples.

Results

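The noncoding small nucleolar RNA (snoRNA) host genes are spliced genes whose introns carry snoRNAs. The list held 8 of them, Gas5, Snhg1, Snhg3, Snhg5, Snhg6, Snhg7, Snhg8 and Snhg12, and each was sought among 30210 features by Ensembl identifier and then by the position of its snoRNAs. Gas5 was found by identifier and 3 more, Snhg1, Snhg5 and Snhg7, by position. For the other 4 a host feature was not analysed here, and the snoRNAs of their introns were described. In all, 29 snoRNA features lay in the 8 loci.

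All cells were mouse embryonic fibroblasts (MEF) into which PKR, a kinase activated by double-stranded RNA, had been put back. The groups were RM PKR, mutated in each double-stranded RNA-binding motif, with 0.1 mM palmitic acid, RM PKR with mock treatment, WT PKR with 0.1 mM palmitic acid and WT PKR with mock treatment. PKR was immunoprecipitated from lysate, and its RNA was fragmented and sequenced with a small RNA kit, in datasets A and B with 3 libraries a group and in dataset C with 1. The question of the series is which RNAs come down more with WT PKR once the cells have had palmitate, a saturated fatty acid. The sources used here do not name the promoter or clone behind the PKR that was put back, nor the meaning of the mark 2hr on the columns of dataset B. Replicates are biological per the series' design, with no more said of their origin, so p-values measure the spread between these libraries. With no input and no control precipitate, the amount of an RNA in the cell, its binding to PKR and background cannot be told apart.

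In mammals most snoRNAs are cut from introns after splicing. C/D box snoRNAs guide ribose methylation and H/ACA box snoRNAs guide pseudouridylation, mainly of ribosomal RNA. The spliced exons of noncoding hosts such as Gas5, a gene known for its rise in growth-arrested fibroblasts, and Snhg1 hold no long reading frame, are read by ribosomes and are degraded by nonsense-mediated decay, so the snoRNA is usually far more abundant than the host RNA.

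Total counts ran from 254762 to 8036622 in dataset A, where RM palmitate replicate 2 was the smallest library and the next smallest held 3249858, and from 2204502 to 7122087 in dataset B. The fibroblast marker Col1a1 stood at 2014 to 3833 CPM in A and 1945 to 5934 CPM in B. CPM is the share of a library's counts, taken without TMM scaling for these markers and with it elsewhere. Adgre1 and Cd3e, markers of macrophages and T cells, were at 0 in all 24 libraries. Other macrophage markers were counted at low levels. Cd68 stood at 0 to 1.39 CPM in A and 0.710 to 2.79 CPM in B, and Csf1r reached 0.597 and 1.48 CPM. The epithelial marker Krt8 reached 13.8 CPM in B. The 29 snoRNAs took 2.71% to 11.4% of the counts in A and 0.219% to 1.05% in B. In B, WT mock replicate 1 stood apart in these RNAs. It had 19.8 reads of C/D box snoRNAs for each read of H/ACA box snoRNAs, against 4.36 to 7.64 in the other 11 libraries of B and 39.6 to 94.9 in the libraries of A. Over 6171 features its counts had a Spearman correlation of 0.893 to 0.921 with the other WT mock libraries of B and of 0.650 to 0.721 with those of A, but over the 29 snoRNAs the correlation was 0.761 to 0.768 with B and 0.848 to 0.879 with A.

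The snoRNA sequences below belong to the features on which the results turn, and show both snoRNA classes. They are GENCODE M21 transcripts (GRCm38), matched by Ensembl identifier, while positions in the text are those of the files on mm9. Gm25789 lies in Gas5 (chr1:162968439-162968514, plus strand), Gm22744 (chr19:8799582-8799646, plus) and Gm23246 (chr19:8800084-8800150, plus) in Snhg1, and Snord99 (chr4:131866606-131866679, plus) and Snora61 (chr4:131866155-131866284, plus) in Snhg12. Snora24 (chr3:123210855-123210984, minus) lies in Snhg8. Capitals mark TGATGA, a C box, within the first 15 bases and CTGA, a D box, within the last 12 bases of C/D box snoRNAs, or ACA followed by 3 bases at the end of H/ACA box snoRNAs.
Gm25789: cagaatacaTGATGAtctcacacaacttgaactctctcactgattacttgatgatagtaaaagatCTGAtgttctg
Gm22744: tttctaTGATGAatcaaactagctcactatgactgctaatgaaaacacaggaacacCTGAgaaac
Gm23246: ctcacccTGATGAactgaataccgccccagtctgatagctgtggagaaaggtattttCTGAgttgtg
Snord99: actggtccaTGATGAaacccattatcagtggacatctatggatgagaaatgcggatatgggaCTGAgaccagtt
Snora61: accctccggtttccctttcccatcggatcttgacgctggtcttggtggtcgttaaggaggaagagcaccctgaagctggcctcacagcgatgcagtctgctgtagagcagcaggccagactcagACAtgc
Snora24: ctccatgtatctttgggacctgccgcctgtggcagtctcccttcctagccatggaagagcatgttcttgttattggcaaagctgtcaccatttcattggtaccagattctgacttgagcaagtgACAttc
Of the 29 features, 27 had a sequence there and 25 of those had the same length as in the files. Both boxes were found in 11 of 19 C/D box snoRNAs and the ACA end in 5 of 8 H/ACA box snoRNAs. Among all 1507 GENCODE snoRNAs, whatever their class, 19.4% had both boxes and 18.3% the ACA end. Only the annotated strand was searched.

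The counts of the Gas5 feature were almost entirely counts of the snoRNAs inside it. Gas5 (ENSMUSG00000053332, chr1:162964553-162968670, plus strand) was counted over 3760 bases, of which 669 belong to 9 snoRNA features. One of these has the symbol Mir5117 but the snoRNA type, with both boxes found in its sequence. In dataset A it had 116311, 1816 and 108470 counts in RM palmitate libraries, against 273028, 187236 and 112104 in RM mock libraries. With WT PKR it had 208672, 84909 and 29492 counts after palmitate, against 39099, 55009 and 79643 after mock treatment. The snoRNAs made up 99.8% to 99.96% of these counts in every library of A. In dataset B the counts were 9646, 6379 and 6734 in RM palmitate libraries, against 19444, 21325 and 7335 in RM mock libraries. With WT PKR they were 8730, 6633 and 15354 after palmitate, against 34401, 4443 and 4336 after mock treatment, and WT mock replicate 1 was the highest of the dataset. The share of snoRNAs was 97.4% to 99.8% in B.

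Reads of Gas5 outside the snoRNAs were few. After subtraction Gas5 kept 117, 4 and 96 counts in RM palmitate libraries of A, against 126, 109 and 105 in RM mock libraries, and 123, 63 and 26 in WT palmitate libraries, against 32, 54 and 32 in WT mock libraries. In B it kept 90, 70 and 85 counts in RM palmitate libraries, against 172, 190 and 81 in RM mock libraries, and 105, 72 and 169 in WT palmitate libraries, against 69, 117 and 100 in WT mock libraries. There were 453 to 2488 snoRNA reads for each read outside in A. In B there were 37.0 to 112 in 11 libraries and 498 in WT mock replicate 1. Whether the outside reads are spliced exons or unspliced introns cannot be told from the counts, because the counted part of the feature holds intron bases too.

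**Figure D1:**
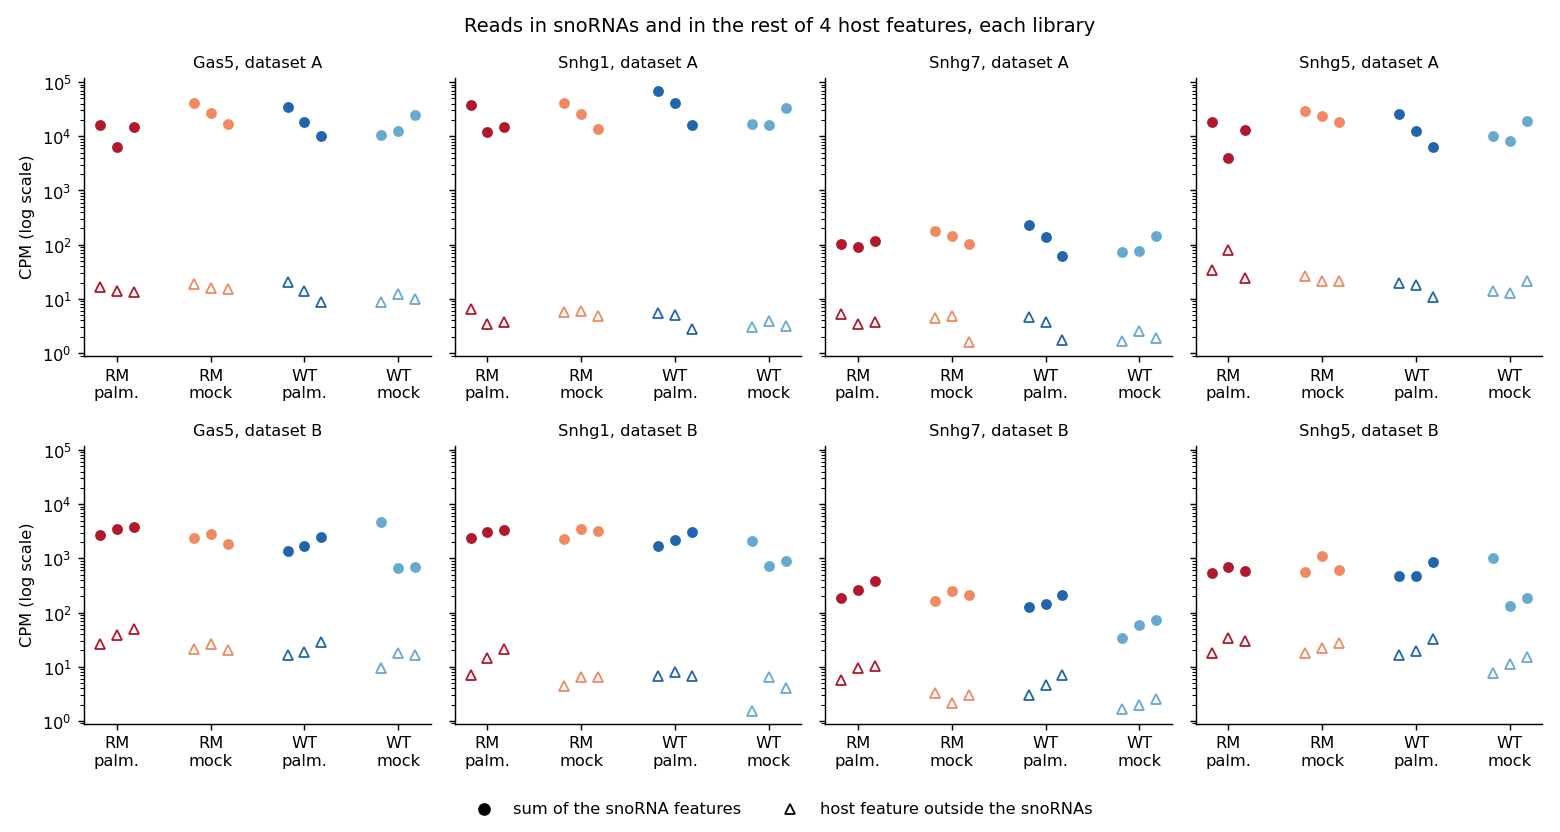
Level in CPM (log axis) of the Gas5, Snhg1, Snhg7 and Snhg5 positions, as reads in their snoRNAs and reads outside them, 1 point per library, in datasets A and B. In every library of both datasets the snoRNA reads lie above the outside reads, by at least 11.4 times.

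The Snhg1 position showed the same composition. The lincRNA feature there (ENSMUSG00000090867, chr19:8797986-8800932, plus strand, between Slc3a2 and Wdr74) is matched to Snhg1 by position, and its 2947 counted bases include 615 bases of 8 snoRNAs. One of these is Snord22, the mouse U22, a C/D box RNA needed for maturation of the small-subunit ribosomal RNA in Xenopus. In A this feature stood at 38539, 11791 and 14998 CPM in RM palmitate libraries, against 41756, 26226 and 13784 CPM in RM mock libraries. With WT PKR it stood at 68570, 40536 and 16114 CPM after palmitate, against 16905, 16532 and 33811 CPM after mock treatment. In B it stood at 2384, 3038 and 3360.5 CPM in RM palmitate libraries, against 2251, 3470 and 3165 CPM in RM mock libraries. With WT PKR it stood at 1694, 2223 and 3086 CPM after palmitate, against 2138, 741 and 900.0 CPM after mock treatment, where replicate 1 was again the high library. The snoRNAs made up over 99% of the counts in each of the 24 libraries, and the outside reads numbered 1 to 47 in A and 11 to 48 in B.

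The Snhg7 position had fewer reads, and its snoRNAs are both H/ACA box RNAs. Its lincRNA feature (ENSMUSG00000091299, chr2:26492697-26495764, minus strand), matched by position, was counted over 2465 bases, 271 of them in Snora17 and Snora43. In A it stood at 109, 93.1 and 119 CPM in RM palmitate libraries, against 184, 148 and 104 CPM in RM mock libraries, and at 238, 140.0 and 63.8 CPM in WT palmitate libraries, against 74.0, 78.7 and 147 CPM in WT mock libraries. All 4 groups overlapped. In B it stood at 188, 266 and 391 CPM in RM palmitate libraries, against 170.5, 248 and 215 CPM in RM mock libraries, and at 128, 151 and 218 CPM in WT palmitate libraries, against 35.4, 61.5 and 77.1 CPM in WT mock libraries. The WT mock group of B lay below all other libraries of that dataset. Snora17 and Snora43 made up 95.1% to 98.7% of the counts in A and 95.3% to 99.1% in B.

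At the Snhg5 position the host and its snoRNAs were counted apart. The lincRNA feature (ENSMUSG00000032424, chr9:88415894-88417721, minus strand, between Syncrip and Zfp949) was matched by the number, length and spacing of its snoRNAs, and its 993 counted bases hold none of the 2 snoRNA features, which lie at the places of Snord50a and Snord50b. In A this feature stood at 34.3, 79.3 and 24.3 CPM in RM palmitate libraries, against 26.0, 21.4 and 21.1 CPM in RM mock libraries, and at 19.6, 18.1 and 10.6 CPM in WT palmitate libraries, against 13.8, 12.7 and 21.8 CPM in WT mock libraries. The value of 79.3 CPM is 23 counts of the small library. In B it stood at 17.8, 33.8 and 29.7 CPM in RM palmitate libraries, against 17.96, 22.4 and 27.9 CPM in RM mock libraries, and at 16.6, 19.5 and 31.9 CPM in WT palmitate libraries, against 7.71, 11.4 and 14.9 CPM in WT mock libraries. For each of these reads there were 50.1 to 1324 reads of the 2 snoRNAs in A. In B there were 11.4 to 49.3 in 11 libraries and 130 in WT mock replicate 1.

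Per length, the hosts had the same order in both datasets once their snoRNAs were set aside. The features were counted over unlike parts of their loci, 993 of 1828 spanned bases for Snhg5 and all 2947 for Snhg1. For Gas5 it was 3760 of 4118 bases and for Snhg7 2465 of 3068. Intron bases thus enter the lengths unequally, and the order need not be that of the spliced RNAs. In CPM per kilobase of counted sequence outside snoRNAs, Snhg5 was highest, with a median of 21.4 in A and 18.9 in B over 12 libraries. Gas5 followed with medians of 4.65 and 6.83, and each of these steps held in 12 of 12 libraries of each dataset. Snhg1 had medians of 1.92 and 2.86 and Snhg7 of 1.71 and 1.44. Snhg1 was above Snhg7 in 10 of 12 libraries of each dataset, but their ranges overlapped, at 1.20 to 3.01 and 0.766 to 2.59 in A. By group in B, Gas5 averaged 12.4 ± 3.86 in RM palmitate libraries, 7.36 ± 0.926 in RM mock libraries, 6.91 ± 1.99 in WT palmitate libraries and 4.77 ± 1.47 in WT mock libraries (CPM per kilobase, SD, n = 3 each).

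Among the snoRNAs the spread per length was far wider. In A the Snord50b place of Snhg5 was highest, with a median of 216385 CPM per kilobase, and Gm23246 and Gm22744 of Snhg1, Snord99 of Snhg12 and Gm25789 and Gm23212 of Gas5 came next, at 169240 to 49983. In B the same 6 features led, in another order, with Gm25789 first at 9271 and Snord99 sixth at 6689 CPM per kilobase. The lowest in A was Snora43 of Snhg7, with 154, and the lowest in B was Snord78 of Gas5, with 99.3. Gas5 held both Gm25789 and Snord78, so the snoRNAs of 1 host differed widely. Snord87 of Snhg6 had a median of 413 CPM per kilobase in B, Snora24 of Snhg8 ran from 28.6 to 232 CPM in B, and the 2 snoRNAs of Snhg3, Snora73a and Snora73b (the U17 family, RNAs that act in ribosomal RNA processing), differ at only 7 of 205 positions, so the split of reads between them is uncertain. On the strand question, Gm17300 covers both on the opposite strand with 1527 counted bases and had 0 to 1 counts, while Snora73a had 20 to 5383 in A and 303 to 1603 in B.

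With WT PKR in dataset B, palmitate went with higher counts of several host snoRNAs. By edgeR's quasi-likelihood test with Benjamini-Hochberg adjustment over all features, 9 of 29 snoRNAs were higher and none lower, beside 9.43% of all 12466 tested features called higher. They were 6 of the 8 H/ACA box RNAs and 3 of the 21 C/D box RNAs. The median log2 fold change was 1.63 for the H/ACA class and 0.26 for the C/D class, against -0.05 over all features. Without WT mock replicate 1, 6 of the 8 H/ACA and 14 of the 21 C/D box RNAs were called higher, beside 7.51% of all features, and both class medians were 1.46 to 1.47. The difference between the classes was not tested. DESeq2 called 12.

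Snora61 of Snhg12 stood at 147, 173 and 268 CPM in WT palmitate libraries, against 61.8, 50.4 and 73.4 CPM in WT mock libraries, with no overlap. Its log2 fold change was 1.66 ± 0.21 (SE, edgeR adjusted p = 0.000347). Snora24 of Snhg8 stood at 93.6, 126 and 161 CPM, against 28.6, 41.6 and 46.3 CPM in WT mock libraries, a log2 fold change of 1.71 ± 0.31 (edgeR adjusted p = 0.00612). Snora73b of Snhg3 rose by 1.60 ± 0.21 (edgeR adjusted p = 0.000655), and Snora17 of Snhg7, Snora16a and Snora44 of Snhg12 by 1.69, 1.31 and 1.66 on the log2 scale. The C/D box RNAs that passed were Gm25894 and Gm22744 of Snhg1, with log2 fold changes of 1.77 and 1.59, and Snord78 of Gas5, with 1.09. Gm25894, Snora61, Snora73b and Snora24 were called in each of 6 fits that left out 1 library. Snora17 and Snora44 were lost in 3 of 6, Gm22744 and Snord78 in 2 and Snora16a in 1, mostly without WT mock replicate 2 or WT palmitate replicate 3, where their adjusted p reached 0.0866 (edgeR). Of the 4 host features, Snhg7 was higher in WT palmitate libraries, by 1.52 ± 0.36 on the log2 scale (edgeR adjusted p = 0.0223). This call was lost without WT palmitate replicate 3 (1.27, edgeR adjusted p = 0.0731) or without WT mock replicate 2 (edgeR adjusted p = 0.0629). Snhg5 had 1.02 ± 0.32 (edgeR adjusted p = 0.0577, DESeq2 adjusted p = 0.0204). Among the 6 fits edgeR called this Snhg5 difference only without WT palmitate replicate 1 or WT mock replicate 3. It was also called with total counts as the scale (0.97, edgeR adjusted p = 0.0182) and with a replicate block (1.01, edgeR adjusted p = 0.000763). Snhg1 had 0.89 ± 0.36 (edgeR adjusted p = 0.110) and Gas5 -0.11 ± 0.69 (edgeR adjusted p = 0.934).

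RM PKR against WT PKR under mock treatment in dataset B uses the same WT mock libraries, so it does not stand apart from the palmitate comparison. Here DESeq2 called 14 snoRNAs, and its number over all features is not given here. By edgeR 10 of 29 snoRNAs were higher with RM PKR and none lower, beside 7.88% of all features called higher. They were 5 of 8 H/ACA and 5 of 21 C/D box RNAs, and without WT mock replicate 1 they were 6 of 8 and 16 of 21, beside 6.69% of all features. Gm22744 of Snhg1, whose sequence is given above, stood at 422, 959 and 1083 CPM in RM mock libraries, against 174, 131 and 145 CPM in WT mock libraries, a log2 fold change of 2.45 ± 0.39 (edgeR adjusted p = 0.00393). Snora24 stood at 115, 186 and 232 CPM in RM mock libraries, against 28.6, 41.6 and 46.3 CPM in WT mock libraries, a log2 fold change of 2.19 ± 0.31 (edgeR adjusted p = 0.00254). Snora61 stood at 169, 164 and 166 CPM in RM mock libraries, against 61.8, 50.4 and 73.4 CPM in WT mock libraries, and rose by 1.43 ± 0.21 (edgeR adjusted p = 0.00108). The others were Snora17 with 2.09, Gm23246 with 1.89, Gm25894 with 1.46, Snord78 with 1.28, the Snord50a place with 1.20, Snora16a with 1.12 and Snora73b with 0.88. Of the 10, 5 were called in each of 6 fits that left out 1 library, namely Gm22744, Snora24, Snora17, Gm25894 and Snora61. The Snord50a place was lost in 5 of 6 (edgeR adjusted p up to 0.143), Gm23246 in 3, Snora16a in 2, and Snord78 and Snora73b in 1 each. Of the host features, whose counts include these snoRNAs, Snhg7 was higher by 1.87 ± 0.36 (edgeR adjusted p = 0.0107) and Snhg1 by 1.23 ± 0.36 (edgeR adjusted p = 0.0371). The Snhg1 call was lost when RM mock replicate 2 or 3 or WT mock replicate 2 or 3 was left out (edgeR adjusted p of 0.0853 to 0.110). It was also lost with no filter on low counts (edgeR adjusted p = 0.112) and with a replicate block (edgeR adjusted p = 0.0686). Gas5 had a log2 fold change of 0.23 ± 0.69 (edgeR adjusted p = 0.863) and Snhg5 of 0.99 ± 0.32 (edgeR adjusted p = 0.0641, DESeq2 adjusted p = 0.0232). By edgeR this Snhg5 difference was called with total counts as the scale (adjusted p = 0.0215), with a replicate block (adjusted p = 0.000668) and without WT mock replicate 3 (adjusted p = 0.0419).

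**Figure D2:**
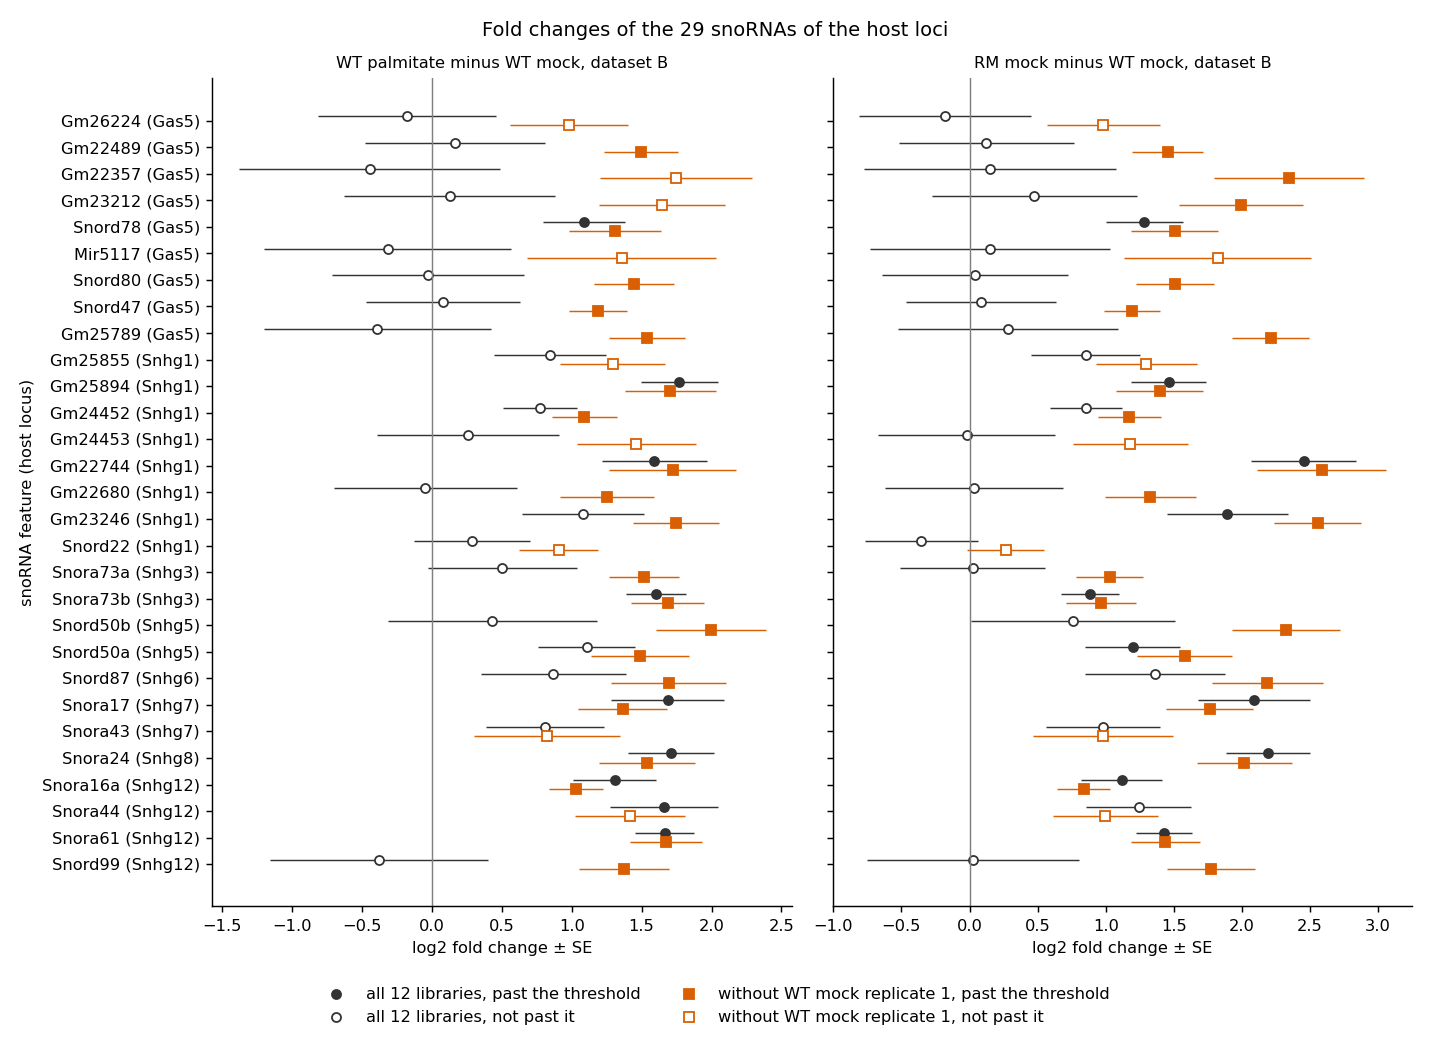
Log2 fold change with its SE of the 29 host snoRNAs in dataset B, with the host in brackets, for WT palmitate over WT mock libraries (left) and RM mock over WT mock libraries (right), in all 12 libraries (circles) and without WT mock replicate 1 (squares), filled where the adjusted p was under 0.05. With all libraries 9 of 29 on the left and 10 of 29 on the right were called, and without WT mock replicate 1 it was 20 and 22.

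The number of host snoRNAs called in dataset B changed when WT mock replicate 1 was left out. In that library Gm25789 of Gas5 stood at 1563 CPM and Snord99 of Snhg12 at 1208 CPM, against 161 and 173 CPM and against 151 and 149.98 CPM in WT mock replicates 2 and 3. Snora61, from the same host as Snord99, did not share this, at 61.8 CPM in that library. For each read of the 3 H/ACA box RNAs of Snhg12 that library had 9.20 reads of Snord99, against 0.612 to 1.30 in the other libraries of B and 4.40 to 17 in A. Without it, 20 of 29 snoRNAs were higher in WT palmitate than in WT mock libraries, beside 7.51% of all features called higher, with a median log2 fold change of 1.46, and 22 of 29 were higher in RM mock than in WT mock libraries, beside 6.69%. All 29 were then positive in both. The library was singled out after its levels of these same snoRNAs were seen. Leaving out a WT mock library with high levels of RNAs such as Gm25789 and Snord99 raises their fold changes by construction. These counts therefore show the weight of 1 library and are no separate support for a difference. Gas5 had log2 fold changes of 1.45 (edgeR adjusted p = 0.00548) and 1.78 (edgeR adjusted p = 0.00162), Snhg1 of 1.52 (edgeR adjusted p = 0.00448) and 1.86 (edgeR adjusted p = 0.00135), and Snhg7 of 1.27 (edgeR adjusted p = 0.0452) and 1.62 (edgeR adjusted p = 0.0184). Snhg5, the host counted apart from its snoRNAs, was not called, with 0.81 (edgeR adjusted p = 0.169) and 0.77 (edgeR adjusted p = 0.172). Leaving out WT mock replicate 2 gave 5 snoRNAs in the palmitate comparison, beside 725 features called higher. Leaving out WT palmitate replicate 3 gave 4 there, beside 660 features called higher. In the mock comparison 6 were called without RM mock replicate 2, and the range over all features in such fits is given in the closing section.

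**Figure D3:**
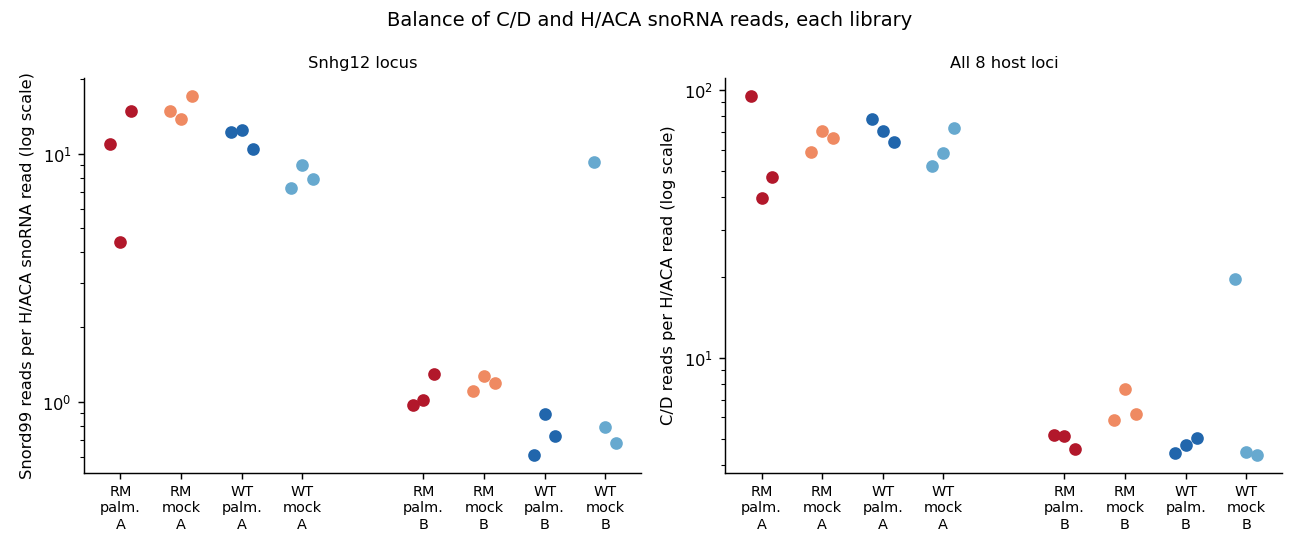
Reads of Snord99 per read of Snora16a, Snora44 and Snora61 of the same host (left), and reads of C/D box per read of H/ACA box snoRNAs of all hosts (right), 1 point per library, log axes. WT mock replicate 1 of dataset B, at 9.20 and 19.8, lies above the other 11 libraries of B, which reach 1.30 and 7.64.

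With RM PKR in dataset B, palmitate went with a change in 1 host snoRNA. Snora73b stood at 147, 160.2 and 222 CPM in RM palmitate libraries, against 95.3, 73.7 and 65.7 CPM in RM mock libraries, a log2 fold change of 1.16 ± 0.21 (edgeR adjusted p = 0.0101), beside 5.08% of all features called higher. DESeq2 called 4 host snoRNAs, beside 907 of all features called higher. With edgeR the number of host snoRNAs was 0 without RM mock replicate 2 (Snora73b 1.12, edgeR adjusted p = 0.0515), beside 104 features called higher. It was 4 without RM palmitate replicate 1, beside 1438. RM palmitate libraries against WT palmitate libraries gave no called snoRNA or host, beside 7.81% of all features called in either direction, with 1 snoRNA at an unadjusted p under 0.05 by edgeR. DESeq2 called 1 snoRNA in that comparison, beside 1071 of all features in either direction. There 27 of 29 snoRNAs were positive, with a median of 0.44. The palmitate effect with RM PKR minus that with WT PKR gave no call among the 29 snoRNAs and none among all features, 0%, by edgeR. At an unadjusted p under 0.05 there were 7 snoRNAs and 2011 features, and DESeq2 called 6 snoRNAs, all negative, and 375 features. Without WT mock replicate 1, 27 of 29 differences were negative and none was called, beside 0.0397% of all features, with 15 at an unadjusted p under 0.05 by edgeR. RM palmitate replicates 2 and 3 of B had TMM scaling factors of 0.820 and 0.637.

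In dataset A, with all 12 libraries, TMM scaling and the filter on low counts, no host and no host snoRNA passed edgeR's test in any comparison. Palmitate with RM PKR gave 0 of 29 called by edgeR and by DESeq2, beside 0.477% of all 11328 features, with 25 negative, a median of -0.77 and 4 at an unadjusted p under 0.05. Palmitate with WT PKR gave 0 of 29 by both tools, beside 0.335%, with 29 positive, a median of 0.53 and 2 at an unadjusted p under 0.05. RM against WT PKR gave 0 of 29 by both tools under palmitate, beside 3.43% (27 negative, median -0.68, 3 unadjusted), and 0 of 29 by both tools under mock treatment, beside 3.74% (29 positive, median 0.66, 1 unadjusted). The palmitate effect with RM PKR minus that with WT PKR was negative for all 29, with a median of -1.24, and 5 had an unadjusted p under 0.05, beside 0% of all features called and 469 unadjusted. None of the 29 was called there by DESeq2. Replicates within a group differed widely, as Gm25789 shows with 4634, 1655 and 4153 CPM in RM palmitate libraries, against 13678, 8796 and 4700.2 CPM in RM mock libraries, and 9500, 5043 and 2767 CPM in WT palmitate libraries, against 3068, 3916 and 6994 CPM in WT mock libraries. Without the small RM palmitate replicate 2, the palmitate comparison with RM PKR still gave 0 calls, with 25 negative and a median of -0.63, beside 1.09% of all features. RM against WT PKR under palmitate then also gave 0 calls, with 26 negative, a median of -0.47 and none at an unadjusted p under 0.05, beside 5.26%. The difference of the palmitate effects then had a median of -1.14 and 1 at an unadjusted p under 0.05, with 0 calls, beside 0% of all features. Among the hosts, the Snhg5 feature had no overlap between RM palmitate and WT palmitate libraries and a log2 fold change of 1.09 ± 0.33 (edgeR adjusted p = 0.0792, DESeq2 adjusted p = 0.0389). By edgeR this Snhg5 difference was called with total counts as the scale (1.62, adjusted p = 0.00236), with no filter (1.07, adjusted p = 0.00100) and without RM palmitate replicate 3 (1.41, adjusted p = 0.0339), but not without the small library (0.83, adjusted p = 0.0641). Gas5 had -1.18 ± 0.61 with palmitate and RM PKR (edgeR adjusted p = 0.412).

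**Figure D4:**
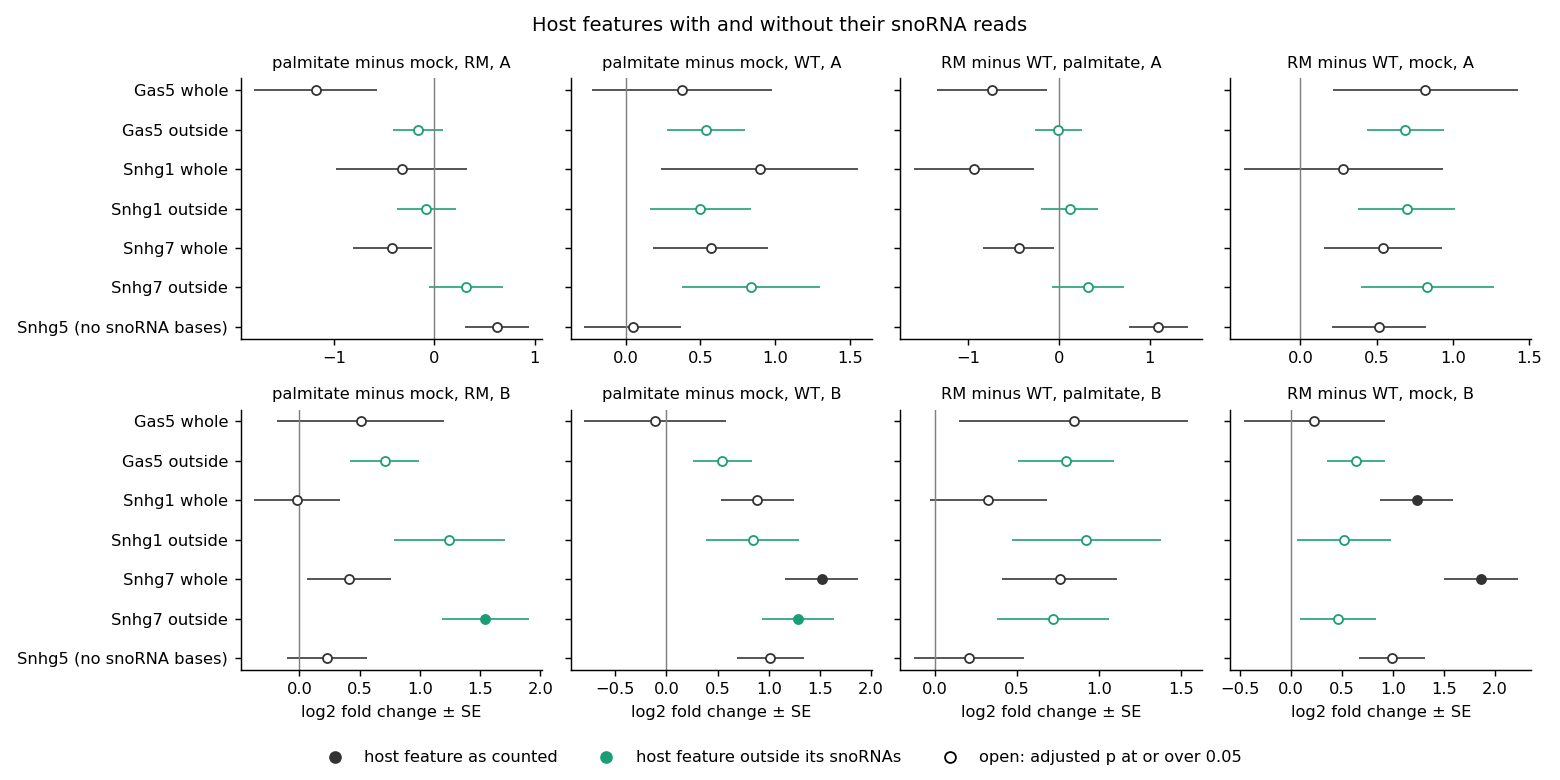
Log2 fold change with its SE of the host features and of the same hosts outside their snoRNAs, for each comparison of datasets A and B, with called values marked. Snhg7 in dataset B was called in both forms for palmitate with WT PKR, at 1.52 and 1.28, and no host was called in dataset A.

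Outside the snoRNAs, with all libraries and without a replicate block, Snhg7 alone was called, in dataset B. The subtracted counts were put in place of the host counts in the same model, an alternative chosen after seeing that the features cover their snoRNAs. Snhg7 outside Snora17 and Snora43 had 20, 17 and 18 counts in RM palmitate libraries of B, which is 5.76, 9.47 and 10.5 CPM, against 26, 16 and 12 counts or 3.24, 2.19 and 3.08 CPM in RM mock libraries. With WT PKR it had 3.05, 4.71 and 7.22 CPM after palmitate, against 1.66, 1.99 and 2.52 CPM after mock treatment. Both palmitate comparisons passed, with log2 fold changes of 1.54 ± 0.36 (edgeR adjusted p = 0.0207) and 1.28 ± 0.35 (edgeR adjusted p = 0.0213), and these counts are low. The call with RM PKR was lost in 4 of 6 fits that left out 1 library (RM mock replicate 1 or 2, RM palmitate replicate 2 or 3, edgeR adjusted p up to 0.0939). The call with WT PKR was lost in 3 of 6 (WT mock replicate 1 or 2, WT palmitate replicate 3, edgeR adjusted p up to 0.159). RM against WT PKR under mock treatment, called for the whole Snhg7 feature, gave 0.46 ± 0.37 outside its snoRNAs (edgeR adjusted p = 0.430). Gas5 outside its snoRNAs had 0.71 ± 0.29 with palmitate and RM PKR (edgeR adjusted p = 0.144) and 0.55 ± 0.29 with palmitate and WT PKR (edgeR adjusted p = 0.219). Snhg1 outside its snoRNAs had 1.24 ± 0.46 (edgeR adjusted p = 0.111) and 0.84 ± 0.46 (edgeR adjusted p = 0.235). Without WT mock replicate 1 the values with WT PKR were 0.32 for Gas5 and 0.44 for Snhg1, both without a call. Without RM palmitate replicate 1 both were called with RM PKR, Gas5 with 0.95 (edgeR adjusted p = 0.0309) and Snhg1 with 1.64 (edgeR adjusted p = 0.0143), and also for RM against WT PKR under palmitate, with 1.04 (edgeR adjusted p = 0.0228) and 1.32 (edgeR adjusted p = 0.0400). In A none of the 3 was called in any comparison, and the lowest adjusted p was that of Gas5 for RM against WT PKR under mock treatment, 0.69 ± 0.25 (edgeR adjusted p = 0.137).

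Snhg5 alone allowed a ratio of separately counted snoRNA and host reads within a library. In A the log2 ratio averaged 7.93 ± 2.0 in RM palmitate libraries and 10.003 ± 0.21 in RM mock libraries (SD, n = 3 each), with no overlap, a difference of -2.07 with exact permutation p = 0.1, the smallest that 3 against 3 allows, and 0.4 after adjustment over 8 tests. Without the small RM palmitate replicate 2, which had 50.1 snoRNA reads for each host read against 544 and 549 in the other RM palmitate libraries, the difference was -0.91. RM palmitate against WT palmitate libraries differed by -1.74, again with no overlap and exact permutation p = 0.1, and by -0.58 without that library. The other pairs of groups overlapped in both datasets. In B the differences were -0.50 and 0.01 for palmitate with RM and WT PKR, and -0.22 and 0.29 for RM against WT PKR under palmitate and mock treatment, with adjusted exact permutation p-values of 0.4 to 1.0.

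Dataset C, with 1 library a group and no test, also held few outside reads. The whole Gas5 feature had 27370 counts with RM PKR after palmitate, against 13719 after mock treatment, and 3155 with WT PKR after palmitate, against 1680 after mock treatment. Outside its snoRNAs Gas5 kept 304, 284, 83 and 65 of these counts, in that order. The 29 snoRNAs made up 0.800% and 0.581% of the counts with RM PKR, after palmitate and mock treatment, and 0.174% and 0.0988% with WT PKR. All 29 took a larger share with RM than with WT PKR under both treatments. Palmitate over mock was higher for 12 and lower for 17 with RM PKR, and higher for 24 and lower for 5 with WT PKR. No count of these snoRNAs lay on the strand opposite to the annotated one.

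Other snoRNA hosts were called in small numbers, and most of these calls were lost when 1 library was left out. Of 13 other noncoding hosts 4 were tested in B, and Snhg11 alone was called, higher by 3.19 ± 0.85 on the log2 scale with RM than with WT PKR under mock treatment (edgeR adjusted p = 0.0192), beside 7.88% of all features called higher, a call lost in 3 of 5 such fits. In A 3 were tested and none was called in any comparison. Of 23 protein-coding hosts in B, 4 were higher with palmitate and RM PKR, beside 7.53% of all features called. Among them were Rps2, a protein of the small ribosomal subunit, with 1.29 ± 0.19, which kept its call in 6 of 6 fits, and Nop56, a core protein of C/D box particles, with 0.56 ± 0.14, and Tpt1 with 0.43 ± 0.12, each lost in 5 of 6. With palmitate and WT PKR, beside 15.5% of all features, Nop56 was higher by 0.50 ± 0.13 and Eif4g2 fell by 0.40, a call lost in 6 of 6. With RM against WT PKR, 3 were higher under palmitate (Rps2 1.08, Rpl23a 0.57, Rpl17 1.11) and 2 were lower under mock treatment (Tpt1 -0.78, Eif4g2 -0.46), beside 7.81% and 14.1% of all features called in either direction. Rps2 and Tpt1 kept these calls in 6 of 6 fits. In A 1 was called, Rpl17, with 0.94 ± 0.23 for RM against WT PKR under palmitate (edgeR adjusted p = 0.0231), lost in 3 of 6. Among the nonsense-mediated decay factors in B, Smg5, which helps to remove phosphate from Upf1, was higher with palmitate, by 0.64 with RM PKR and by 0.41 with WT PKR. These calls were lost in 3 of 6 and 5 of 6 fits. None of the 9 such factors tested in A was called.

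The features whose log2 CPM followed the hosts most closely over 12 libraries were mostly other snoRNAs. In A, among 4970 candidates, they were Gm24134 (Pearson r = 0.975), Snord60 (0.970), Snord17 (0.969), a lincRNA feature, ENSMUSG00000090433 (0.958), and Snord96a (0.955). In B, among 7660 candidates, they were Gm25395 (0.978), Snord19 (0.973), ENSMUSG00000092206 (0.972), Snord33 (0.972) and Snord60 (0.971). Each r is a description over 12 libraries that share the scale of their library, and it includes differences between the groups. The profile followed is the mean of the host features as counted. Those of Gas5, Snhg1 and Snhg7 are almost entirely snoRNA reads, so likeness to other snoRNAs was built in. These r values do not describe the host RNA outside the snoRNAs.

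In the authors' deposited table for WT PKR in dataset B the log2 ratio of palmitate over mock was 0.10 for Gas5, 0.88 for the feature at the Snhg1 position, 0.66 for that at the Snhg5 position and 1.45 for that at the Snhg7 position. The authors' deposited table gave these hosts false discovery rate scores of 2.85, 75.5, 39.9 and 200.1 in that order, higher meaning a smaller rate, and at most 6.11 in the other tables with a palmitate comparison.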

How the data were processed

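The authors deposited whole-number counts per feature for each library (32 count columns were used, 52 other columns of values per sample were not), and counts per strand for dataset C. The strands of C were added for the library totals only, and its host and snoRNA counts are those on the annotated strand. Their deposited tables also give a log2 ratio of palmitate over mock and a false discovery rate score, used only where named. Per the submitters' processing notes, CASAVA 1.7.0 and 1.8.2, Novoalign and mm9 were used. The sources used here name neither the counting tool nor its use of strand, and the one locus with opposite-strand features examined is given in the report.

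Of 29777 Ensembl identifiers 25755 had a symbol in GENCODE M21. Hosts not found by identifier were matched by the snoRNA features that a lincRNA feature encloses. The members and lists were chosen with earlier results of these data known.

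Each dataset was fitted with edgeR 4.0.16 (R 4.3.3, limma 3.58.1): quasi-likelihood test, robust, TMM scaling, filterByExpr, 12 libraries, 1 mean per group, two-sided, Benjamini-Hochberg adjustment over all features tested, threshold 0.05. All 4 hosts and 29 snoRNAs passed the filter. CPM are TMM-scaled. The snoRNA-to-host ratio (prior count 0.5) was tested by exact permutation, for Snhg5 only, since the counts of Gas5, Snhg1 and Snhg7 contain their snoRNAs. The model was tested on simulated data. Alternatives were DESeq2 1.42.0, total counts as the scale, no filter, a replicate block, and leaving out each library.

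Named genes are all members, every snoRNA feature inside their loci, per list and comparison up to 3 called members with the smallest p, and the 5 features per dataset, with a mean of at least 10 CPM, most like the hosts in log2 CPM. Same-numbered libraries were not treated as pairs, as not every correlation of their deviations exceeded 0.1 (-0.224 to 0.266). With 3 libraries a group this rule cannot exclude a pairing. Replicates of a group differed by more than sampling noise (chi-square per degree of freedom 4.43 to 155), so none was a repeated deposit. Some listed genes are not reported here.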

Additional observations from a re-analysis of the deposited data

How the results depend on the processing

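Main and alternative numbers of called features are given as numbers of features, and log2 fold changes as such. With total counts as the scale the median of all features moved to 0.39 for RM against WT PKR under palmitate in A, to 0.18 under mock treatment in A, to -0.17 for palmitate with WT PKR in A, and to -0.38 for palmitate with RM PKR and -0.36 for RM against WT PKR under palmitate in B, and fold changes are to be read relative to these. The split of higher against lower calls then turned to 387 against 134 in place of 106 against 282 (RM against WT PKR under palmitate in A), to 433 against 1998 in place of 633 against 306 (palmitate with RM PKR in B) and to 374 against 1735 in place of 523 against 451 (RM against WT PKR under palmitate in B).

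In that scaling palmitate gave 12 calls with RM PKR and 6 with WT PKR in A, and 2431 and 1084 in B. RM against WT PKR gave 240 under mock treatment in A and 2109 under palmitate and 978 under mock treatment in B, and the difference of the palmitate effects gave 119 in B. Host snoRNAs called in B were 3 (2 higher, 1 lower) for palmitate with RM PKR, 1 for RM against WT PKR under palmitate and 5 for the difference of effects. The Snhg7 host feature was called for that difference (-1.51, edgeR adjusted p = 0.0446). Signs turned, all without a call, for Snhg5 with palmitate and WT PKR in A (-0.092), Gas5 outside its snoRNAs for RM against WT PKR under palmitate in A (0.40, with DESeq2 0.027 and with the replicate block 0.039), Snhg5 (-0.17) and Snhg7 (-0.035) with palmitate and RM PKR in B, Snhg1 (-0.082) and Snhg5 (-0.19) for RM against WT PKR under palmitate in B, and the difference of effects outside the snoRNAs in B for Gas5 (-0.22), Snhg1 (-0.0026) and Snhg7 (-0.11).

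With no filter, which tests more features, palmitate gave 349 calls with RM PKR and 197 with WT PKR in A, RM against WT PKR 840 under palmitate and 723 under mock treatment, and the difference of effects 88 in A and 125 in B. Host snoRNAs called in A were then 1 and 1 for palmitate with RM and WT PKR, 2 and 2 for RM against WT PKR under palmitate and mock treatment, and 1 for the difference. DESeq2 called 375 features and 6 host snoRNAs for the difference in B, 4 host snoRNAs for palmitate with RM PKR and 1 for RM against WT PKR under palmitate. The replicate block gave 46 features and 3 host snoRNAs for the difference in B. There it gave 3 host snoRNAs for palmitate with RM PKR, beside 1256 features. It gave 2 host snoRNAs for RM against WT PKR under palmitate, and 0.18 for Gas5 with palmitate and WT PKR. In B it also called Gas5 outside its snoRNAs for palmitate with RM PKR (0.67, edgeR adjusted p = 0.0348). For RM against WT PKR that part of Gas5 was called under palmitate (0.81, edgeR adjusted p = 0.0144) and mock treatment (0.69, edgeR adjusted p = 0.0186). Snhg1 outside was called for palmitate with RM PKR (1.22, edgeR adjusted p = 0.0267). The block also called the Snhg7 host feature in B for RM against WT PKR under palmitate (0.74, edgeR adjusted p = 0.00688) and for the difference (-1.19, edgeR adjusted p = 0.0345). Whether equal replicate numbers mark a pairing is not said by the labels, so these counts and calls are not read as weaker or stronger effects. The cause of these shifts was not tested.

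Leaving out 1 library moved the calls in A to 5 to 127 and 6 to 81 for palmitate with RM and WT PKR, and to 201 to 759 and 200 to 308 for RM against WT PKR under palmitate and mock treatment. In B it moved them to 137 to 2671 and 923 to 2154 for palmitate, 112 to 2500 and 736 to 1826 for RM against WT PKR, and 0 to 903 for the difference. Host snoRNAs called in B ran from 0 to 4 and 4 to 20 for palmitate with RM and WT PKR, and from 0 to 1 and 6 to 22 for RM against WT PKR under palmitate and mock treatment. Signs turned for palmitate with RM PKR in A for Snhg1 (-1.03 to 0.15), Snhg1 outside (-0.56 to 0.21) and Snhg7 outside (-0.060 to 0.57), and with WT PKR in A for Gas5 (-0.14 to 0.87) and Snhg5 (-0.083 to 0.35). For RM against WT PKR in A they turned under palmitate for Snhg7 (-0.82 to 0.10), Gas5 outside (-0.22 to 0.37) and Snhg1 outside (-0.34 to 0.43), and under mock treatment for Snhg1 (-0.14 to 0.72). In B they turned for Snhg1 with palmitate and RM PKR (-0.19 to 0.11), Gas5 with palmitate and WT PKR (-0.50 to 1.45), Gas5 for RM against WT PKR under mock treatment (-0.17 to 1.78), and the difference of effects for Gas5 (-0.94 to 1.01), Gas5 outside (-0.093 to 0.41), Snhg1 outside (-0.18 to 0.80) and Snhg7 outside (-0.036 to 0.64). The log2 snoRNA-to-host ratio of Snhg5 ran from -0.22 to 0.36 for palmitate with WT PKR in A, and in B from -0.59 to 1.16 for the same and from -0.32 to 1.44 for RM against WT PKR under mock treatment. Depth limits the reads outside the snoRNAs, which number 1 to 4 for Gas5, Snhg1 and Snhg7 in the small library of A.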
